A study of Mus musculus with 6 samples.

Results

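Among the mature miRNAs sequenced from mouse whole brain were 8 that are best known from other organs, namely the striated muscle and heart miRNAs miR-1, miR-133a, miR-133b, miR-206, miR-208a, miR-208b and miR-499 and the liver miRNA miR-122. They were chosen by name, guide strands alone, from the 1055 mature miRNAs in the deposited tables, and all 8 were listed. miR-208a was listed by its arms, and its 3p arm, the guide strand, was taken. The libraries came from whole brains of adult 129SV female siblings aged 5.5 months, 3 of them wild-type for Adar2 and 3 Adar2-/-, with every mouse of both genotypes homozygous for the pre-edited Gria2 R allele that rescues the lethality of Adar2 loss. The control mice are thus wild-type for Adar2 and not for Gria2. RNA of 19 to 25 nucleotides was sequenced, and the deposited read counts add up to between 12449633 and 23471819 mapped miRNA reads per wild-type library and between 18645810 and 23935544 per Adar2-/- library. Abundance is given in RPM, a miRNA's reads divided by all mapped miRNA reads in its library and multiplied by 1000000. ADAR2 mRNA was not analysed here, so the genotype labels were not checked.

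The muscle miRNAs are often called myomiRs. The genes of miR-1 and miR-133a lie in pairs and are transcribed together in heart and skeletal muscle, and the genes of miR-206 and miR-133b form a related pair that is used in skeletal muscle. miR-208a, miR-208b and miR-499 lie within myosin heavy chain genes and are made together with their hosts. miR-122 is the main miRNA of hepatocytes. They are not in the list of brain miRNAs used below, which does not mean that brain cells make none of them. Fewer cells of a type and less RNA per cell cannot be told apart in whole brain.

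On NCBIM37 (mm9, the build named in the submitters' processing notes) the Mir206 hairpin lies on chromosome 1 from 20669091 to 20669163 and Mir133b follows on the same plus strand from 20672850 to 20672968, 3686 bases further on. Mir1a-1 lies on chromosome 2 from 180123753 to 180123829 and Mir133a-2 from 180133084 to 180133187, both on the plus strand and 9254 bases apart. Other loci give the same mature miR-1 and miR-133a, so their reads cannot be assigned to a locus. Mir499 lies on chromosome 2 from 155448616 to 155448694 within Myh7b, Mir208a on chromosome 14 from 55567897 to 55567979 within Myh6 and Mir208b on chromosome 14 from 55594537 to 55594613 within Myh7. Each of these 3 hairpins lies on the strand of its host and in an intron of every annotated transcript.

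Mature sequences of 5 of the 8 guide strands were taken from RefSeq (GRCm38.p6), and they are shown because the sequences decide which reads could be shared between members. The seed, bases 2 to 8 from the 5′ end, is in capitals and the sequences run 5′ to 3′.
miR-206: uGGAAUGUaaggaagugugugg
miR-133b: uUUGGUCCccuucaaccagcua
miR-499: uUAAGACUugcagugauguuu
miR-208b: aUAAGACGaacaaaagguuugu
miR-208a-3p: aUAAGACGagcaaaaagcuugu
miR-208a-3p and miR-208b have the same seed and differ at 3 positions outside it, G10A, A16G and C18U, counted from the 5′ end with the base of miR-208a-3p first. The seed of miR-499 shares 6 of its 7 bases with them and differs by G8U, with the base of miR-208b first. The authors kept reads with at most 2 mismatches to a mature miRNA, and weighted a read that matched several equally well. How many reads were shared in this way was not tested. Sequences of miR-1, miR-133a and miR-122 were not in the source used. The pairs miR-133a with miR-133b and miR-1 with miR-206 were therefore not compared, and they may share reads too. The counts of no member were identical to those of another listed miRNA.

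Of all mapped reads, the 8 miRNAs together made up 0.239%, 0.284% and 0.319% in the wild-type libraries, given here and throughout in the order of replicates 1 to 3, and 0.230%, 0.346% and 0.323% in the Adar2-/- libraries. The 95% Wilson interval of wild-type replicate 1, the library with the fewest reads, was 0.236% to 0.241%, which covers counting error alone. Their sum was 2804 ± 400.4 RPM in wild-type and 2995 ± 615.9 RPM in Adar2-/- brains (SD, n = 3 each), a ratio of 1.07, and the values of the genotypes overlapped. With TMM factors the order of the means turned, with 2909 RPM in wild-type and 2879 RPM in Adar2-/-. Replicate 1 was the lowest library of each genotype. Between 85.1% and 96.5% of the reads on the 8 miRNAs in a library belonged to miR-1 and miR-206.

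**Figure D1:**
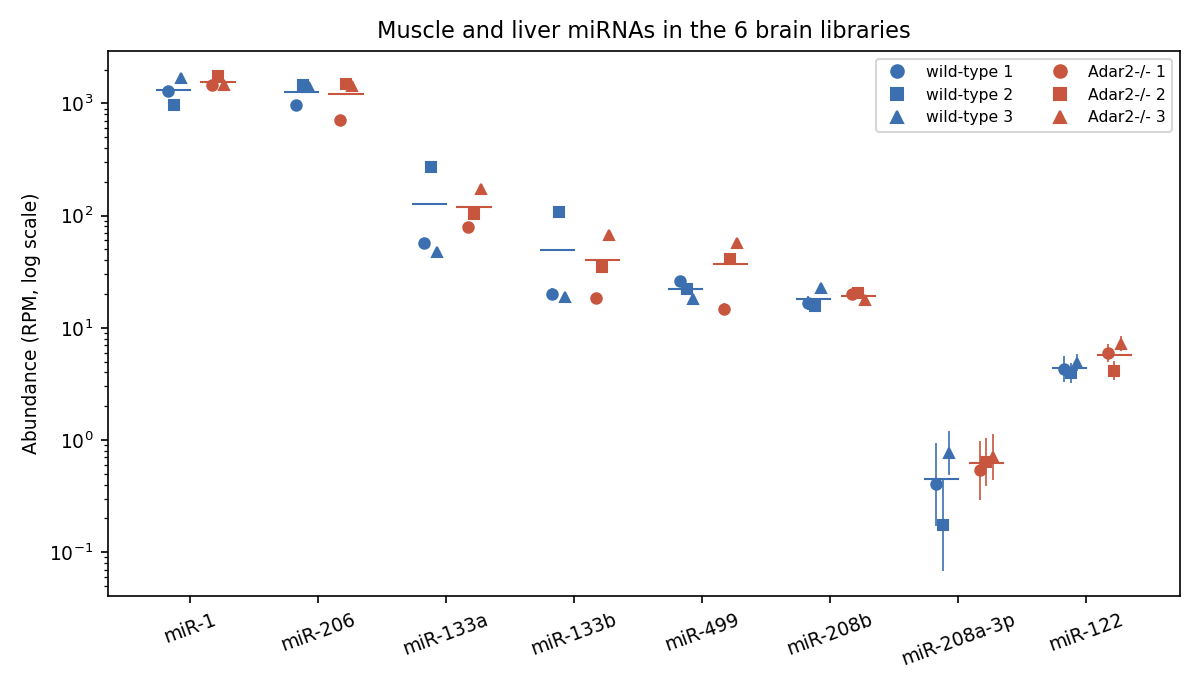
Abundance of the 8 muscle and liver miRNAs in RPM on a log scale, with 1 point for each library, a horizontal line at the mean of each genotype and vertical bars for the 95% Wilson interval, which is often smaller than the point. miR-1 and miR-206 stand between 710.2 and 1755 RPM, whereas miR-208a-3p stays under 1 RPM, and the genotypes overlap for all 8.

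miR-1, which restrains growth and promotes differentiation of cardiac and skeletal myocytes, stood at 1287, 969.7 and 1669 RPM in wild-type and at 1448, 1755 and 1471 RPM in Adar2-/- brains. It rested on 16019 to 41389 reads per library and ranked between 57 and 72 among the 1055 miRNAs. Wild-type replicate 2 was the lowest library and the other 5 lay within the range from 1287 to 1755 RPM. miR-206, a skeletal muscle miRNA that acts in satellite cells and at the neuromuscular junction, stood at 976.5, 1446 and 1404 RPM in wild-type and at 710.2, 1496 and 1441 RPM in Adar2-/- brains. Both replicates numbered 1 were low for miR-206, and the other 4 libraries lay close together by these values. With TMM factors these 4 libraries ran from 1167 to 1709 RPM.

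miR-1 was higher than miR-206 in 5 of the 6 libraries, with ratios of 1.32, 0.671 and 1.19 in wild-type and 2.04, 1.17 and 1.02 in Adar2-/-. The difference between their means over 6 libraries was 187.6 RPM. The SD of miR-206, 324.1 RPM, is a spread between libraries and not the error of a difference within them. Their order turned in wild-type replicate 2 and was not tested, so it is not resolved. All libraries had at least 5.30 times as many reads on miR-206 as on miR-133a, and these 2 ranges did not touch.

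miR-133a, which takes part in proliferation of myoblasts and in cardiac growth, stood at 56.5, 273.0 and 47.6 RPM in wild-type and at 78.4, 103.7 and 172.2 RPM in Adar2-/- brains. miR-133b, its close relative, stood at 20.0, 108.7 and 18.7 RPM in wild-type and at 18.4, 34.9 and 67.6 RPM in Adar2-/- brains. Wild-type replicate 2 was the highest library for both, and Adar2-/- replicate 3 came next. The highest library exceeded the lowest 5.74-fold for miR-133a and 5.91-fold for miR-133b, against 1.81-fold for miR-1 and 1.44-fold for miR-208b.

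Over the 6 libraries the coefficient of variation was 70.9% for miR-133a and 81.8% for miR-133b, which placed them 21 and 10 from the top of the 608 miRNAs for which no library had fewer than 10 reads. The median coefficient of these 608 miRNAs was 31.5%. At 19.7% for miR-1, 26.0% for miR-206, 13.7% for miR-208b and 25.3% for miR-122, 4 other members varied less than that median, and miR-499 varied more, at 53.7%.

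In wild-type replicate 2, miR-133a stood at 3.48 times and miR-133b at 5.44 times the median of the other 5 libraries. In the same library miR-206, the chromosomal neighbour of miR-133b, stood at 1.03 times that median, miR-499 at 0.847, miR-208b at 0.785, miR-122 at 0.806 and miR-1 at 0.659. By RPM this library was the highest of the 6 for the miR-133 guides and for no other member. With TMM scaling factors wild-type replicate 2 again had the highest miR-133a and miR-133b, at 322.6 and 128.5 RPM, and it was then also the highest for miR-206, at 1709 RPM against 852.7 to 1412 RPM in the other 5 libraries. The 4 blood miRNAs miR-451, miR-144, miR-223 and miR-142-3p added up to 1140 RPM there, the lowest of the 6 libraries, in which the sum reached 3435 RPM. The part of blood in these values was not tested.

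The ratio of miR-133a to miR-133b varied less than either, 1.70-fold, with 2.83, 2.51 and 2.54 in wild-type and 4.26, 2.97 and 2.55 in Adar2-/-. In log2 RPM they moved together over the 6 libraries, with Pearson's r of 0.97 and Spearman's rho of 0.83, and r was 0.77 without the 2 libraries farthest from the median of miR-133a. Both quantities share the library total, and they may share reads through the weighting of equal matches, which was not tested. Between miR-1 and miR-133a, Pearson's r was −0.59, and it was −0.11 without the 2 libraries farthest from the median of miR-1.

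miR-1 had 22.8, 3.55 and 35.1 times as many reads as miR-133a in the wild-type libraries and 18.5, 16.9 and 8.54 times as many in the Adar2-/- libraries, a range of 9.88-fold. On the log2 scale the mean was 3.82 ± 1.76 in wild-type and 3.79 ± 0.61 in Adar2-/- (SD, n = 3 each), a difference of −0.03 (two-sided exact permutation test, p = 1, adjusted p = 1 over the 2 ratios tested). The ratio of miR-206 to miR-133b ran from 13.3 in wild-type replicate 2 to 74.9 in wild-type replicate 3. Its log2 mean was 5.19 ± 1.30 in wild-type and 5.03 ± 0.54 in Adar2-/- (SD, n = 3 each), a difference of −0.16 (two-sided exact permutation test, p = 0.8, adjusted p = 1). The smallest p that 3 libraries against 3 allow is 0.1. Wild-type replicate 2 was the lowest library for both ratios, and without it the differences were −1.03 and −0.88.

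**Figure D2:**
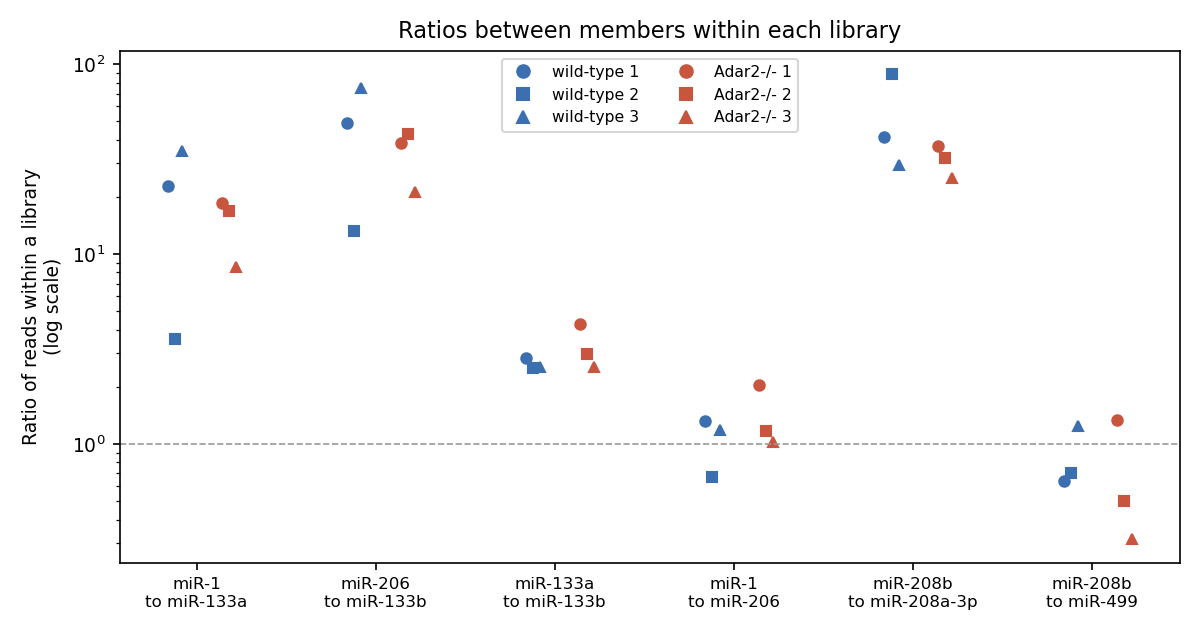
Ratio of the reads of paired members within each library on a log scale, with 1 point for each library and a dashed line at equal reads. The ratios of miR-1 to miR-133a and of miR-206 to miR-133b spread over 9.88-fold and 5.63-fold, while miR-133a to miR-133b stays between 2.51 and 4.26.

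Of the miRNAs hosted by myosin genes, miR-499, from an intron of the slow myosin gene Myh7b, stood at 26.2, 22.2 and 18.0 RPM in wild-type and at 14.8, 40.7 and 56.7 RPM in Adar2-/- brains. Adar2-/- replicate 1 was the lowest and Adar2-/- replicates 2 and 3 the highest of the 6 libraries, so that the wild-type values lay inside the Adar2-/- range. miR-208b, hosted by Myh7, the gene of the slow myosin β heavy chain, stood at 16.6, 15.6 and 22.5 RPM in wild-type and at 19.8, 20.4 and 17.8 RPM in Adar2-/- brains. It had 207 to 527 reads per library and the lowest coefficient of variation among the members.

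miR-208a-3p, hosted by Myh6, the gene of the cardiac myosin α heavy chain, had 5, 4 and 18 reads in wild-type and 10, 15 and 17 reads in Adar2-/- brains. These counts correspond to 0.402, 0.176 and 0.767 RPM in wild-type and 0.536, 0.636 and 0.710 RPM in Adar2-/-. Counting error was wide at this depth, with 95% Wilson intervals from 0.0683 to 0.452 RPM in wild-type replicate 2 and from 0.485 to 1.21 RPM in wild-type replicate 3. The heart miRNA miR-208a was thus at the level of a few reads, whereas miR-208b, with the same seed, had 25.1 to 88.8 times as many reads in the same libraries.

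miR-122, which holds down a set of non-hepatic transcripts in hepatocytes, had 53, 90 and 115 reads in wild-type and 111, 98 and 173 reads in Adar2-/- brains, or 4.26, 3.95 and 4.90 RPM and 5.95, 4.16 and 7.23 RPM. Its rank lay between 422 and 477. By these values Adar2-/- replicate 3 was the highest and wild-type replicate 2 the lowest library, and Adar2-/- replicate 2 fell among the wild-type values. With TMM factors Adar2-/- replicate 1 was the highest, at 7.15 RPM, and Adar2-/- replicate 2 the lowest, at 3.92 RPM.

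Ordered by mean level over the 6 libraries, miR-1 (1433 RPM) and miR-206 (1246 RPM) were followed by miR-133a (122 RPM), miR-133b (44.7 RPM), miR-499 (29.8 RPM), miR-208b (18.8 RPM), miR-122 (5.07 RPM) and miR-208a-3p (0.538 RPM). miR-133a was above miR-133b in all 6 libraries, although their ranges overlapped. miR-133b was above miR-499 in 4 of 6 libraries and miR-499 above miR-208b in 4 of 6, and in both cases the means differed by less than the larger SD. The ranges of miR-208b and miR-122, and those of miR-122 and miR-208a-3p, were separate.

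The passenger strands of the same hairpins were nearly absent. None of the 9 listed star arms exceeded 17 reads in a library or 0.710 RPM, and together they had 209 reads in the 6 libraries. For miR-1 the guide had 180888 reads in all libraries against 45 on miR-1-1* and 7 on miR-1-2*. For miR-206 the counts were 161067 and 7, so the guide had 23010 times as many reads, against 272 times for miR-133a, 595 times for miR-133b and 54.2 times for miR-499. miR-208b* and miR-122* had no read in 4 of 6 libraries each, where 3 reads, the 95% upper limit for a count of 0, would correspond to between 0.125 and 0.241 RPM.

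Lists of miRNAs from other organs give a scale for these levels. The brain miRNAs miR-124, miR-9, miR-128, miR-138, miR-153, miR-219-5p and miR-338-3p, known from neurons and glia, all had at least 10 reads in each library and added up to between 135222 and 178305 RPM. The 7 muscle and heart miRNAs added up to between 2289.7 and 3452 RPM. Blood miRNAs, at 1140 to 3435 RPM, and other miRNAs linked to liver or gut, at 1995 to 4633 RPM and led by miR-192, reached sums of the same size. Other miRNAs linked to muscle added up to between 160466 and 244615 RPM, most of it miR-378, which many tissues make. miR-122 itself stood far below miR-192, at 5.07 RPM against a mean of 2550 RPM.

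As a low reference, 9 listed miRNAs of the testis, an organ that these female mice lack, added up to 2.90 to 5.89 RPM, and the highest single value among them was 1.96 RPM for miR-881. The 7 embryonic stem cell miRNAs added up to 8.08 to 16.9 RPM, led by miR-302b at 3.91 to 8.03 RPM. The mean of miR-302b, 5.92 RPM, was above that of miR-122, 5.07 RPM, whereas the median of the 7 means was 0.186 RPM. In each library, miR-1 stood at 852 to 1799 times the highest testis miRNA, miR-206 at 716 to 1830 times and miR-208b at 10.9 to 24.7 times. miR-122 stood at 2.23 to 7.40 times the highest testis miRNA in each library, and miR-208a-3p lay below it in all 6, at 0.222 to 0.667 times. The acinar pancreas miRNAs miR-216a, miR-216b and miR-217 added up to 42.3 to 80.0 RPM, with miR-216b at 21.4 to 50.2 RPM, more than miR-122. The surface epithelium miRNAs miR-203 and miR-205 added up to 76.3 to 122 RPM, led by miR-203.

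**Figure D3:**
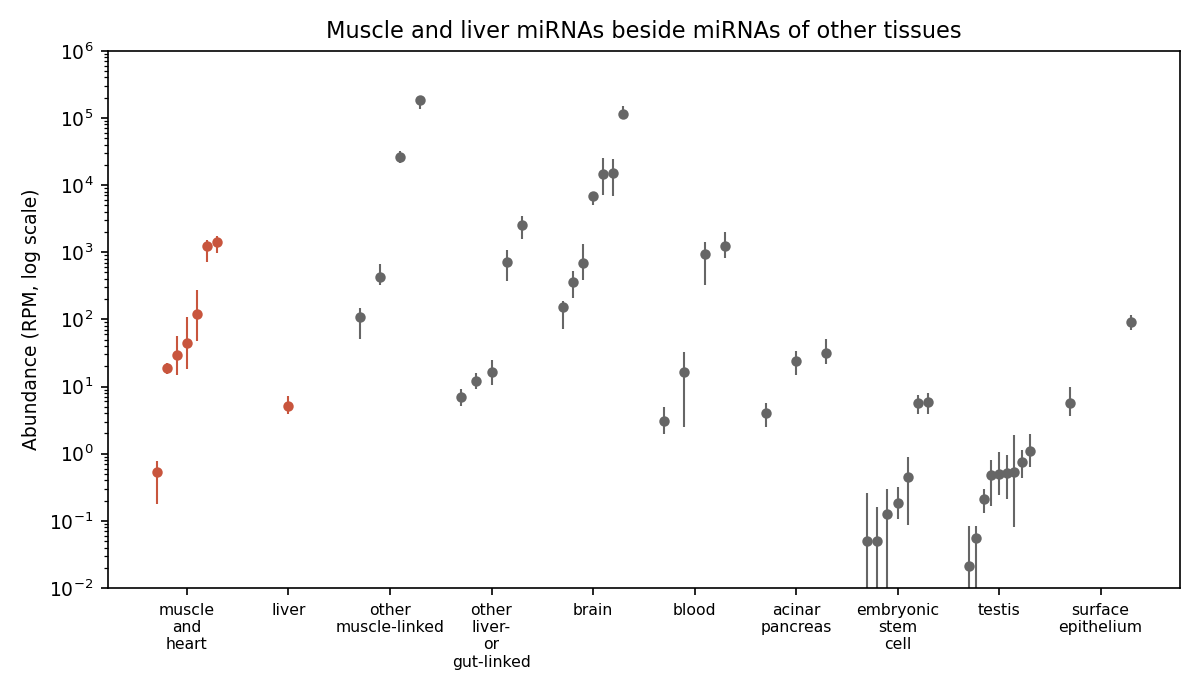
Abundance in RPM on a log scale of the muscle, heart and liver miRNAs (red) and of the miRNAs of the other lists (grey), with a point at the mean over 6 libraries and a line from the lowest to the highest library. A line that reaches the bottom edge includes a library without a read. The means of miR-1 and miR-206 lie below 4 and above 3 of the 7 brain miRNAs, and miR-208a-3p stands within the testis list.

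Whether loss of ADAR2 changed these miRNAs was asked with edgeR's quasi-likelihood test on the counts, with the total of mapped reads as library size, over the 608 miRNAs above. These include 7 of the 8 members, and miR-208a-3p was taken from the same test without a minimum. No miRNA of the 608 passed an adjusted p of 0.05 (Benjamini-Hochberg, background 0%), and 20 (3.29%) had an unadjusted p below 0.05, none of them a muscle or liver miRNA. Without a minimum, edgeR called 0 of 1042 (0%) and 38 (3.65%) had an unadjusted p below 0.05, again without a member. DESeq2 called 1 of 608 (0.164%), miR-497*, which is no member and is named here after its value was seen, and 26 (4.28%) had an unadjusted p below 0.05 there, none of them a member. For 34 of the 608 miRNAs (5.59%) all libraries of one genotype lay beyond all libraries of the other, and this was so for 0 of the 8 members.

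Log2 fold changes of Adar2-/- against wild-type were above 0 for 4 of the 7 members tested, beside 51.6% of all 608, and their median was 0.09 beside 0.02. The highest value was that of miR-499, 0.76 (standard error 0.465, adjusted p = 0.982 in edgeR). Without replicate 1 of both genotypes miR-499 reached 1.28 on the log2 scale (adjusted p = 0.0427 in edgeR). It was the 1 member among the 34 miRNAs (5.59%) that passed there, while 119 (19.6%) had an unadjusted p below 0.05. Of the 34, 33 were higher in Adar2-/-, and the median log2 fold change of all 608 was 0.19 in that fit. miR-499 was at 0.33 without Adar2-/- replicate 3 and at 0.20 without replicate 3 of both genotypes. Over all alternatives its adjusted p ran from 0.0427 to 0.999.

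For miR-122 edgeR gave 0.40 on the log2 scale (standard error 0.359, adjusted p = 0.982). miR-1 had 0.25 (standard error 0.329), miR-208b 0.09 (standard error 0.339) and miR-206 −0.07 (standard error 0.372). For miR-133a it was −0.09 (standard error 0.612) and for miR-133b −0.29 (standard error 0.68). Without wild-type replicate 2 these turned to 1.18 and 1.06, with adjusted p = 0.858 for each in edgeR. For miR-208a-3p the fit without a minimum gave 0.47 (standard error 0.566, adjusted p = 0.988 in edgeR) on 4 to 18 reads per library. Among the 7 members tested together, the miR-133 guides had the highest standard errors. Leaving out wild-type replicate 2 lowered miR-208a-3p to 0.05, and leaving out wild-type replicate 3 raised it to 1.21.

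**Figure D4:**
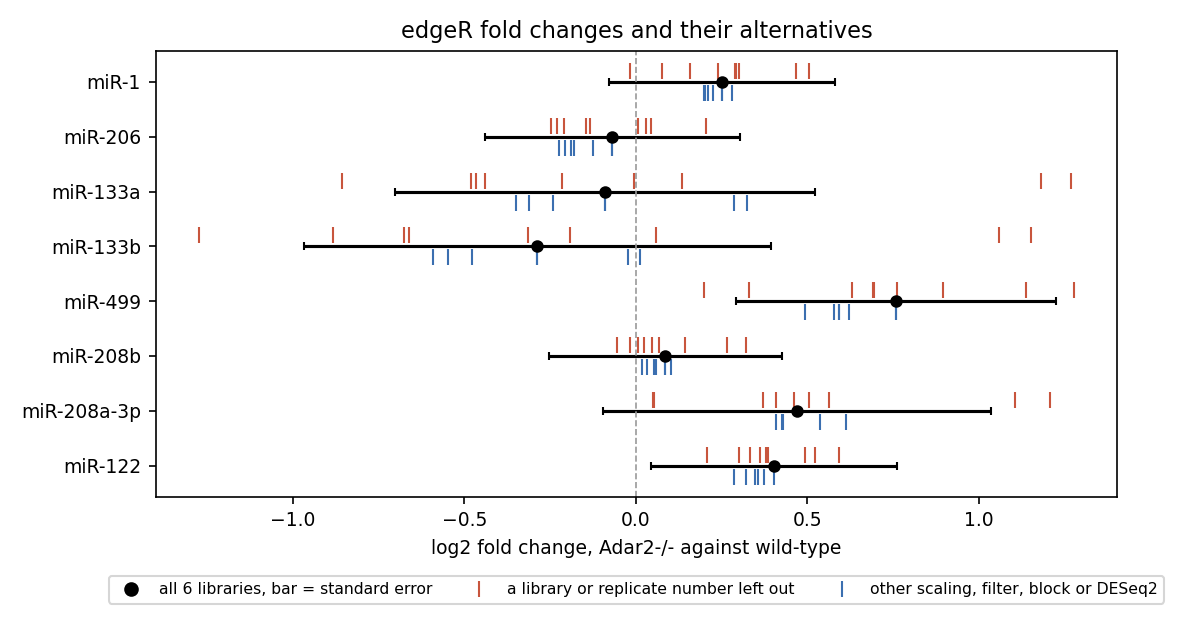
Log2 fold change of Adar2-/- against wild-type in edgeR for each of the 8 miRNAs, with its standard error (black), the values with a library or a replicate number left out (red) and the values under another scaling, filter, block or DESeq2 (blue). The bars of miR-499 and miR-122 lie to the right of 0, those of the other 6 include 0, and none passed the threshold with all 6 libraries.

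Across the 6 libraries, 1 pair of members besides the 2 miR-133 guides followed each other with a Pearson's r above 0.8 among the 21 pairs of members in log2 RPM. These were miR-1 and miR-208b, with r of 0.88, a Spearman's rho of 0.89 and r of 0.91 without the 2 libraries farthest from the median of miR-1. Among 600 other miRNAs, those most like miR-208b were miR-142-3p (r = 0.94), miR-93* (r = 0.94) and miR-451 (r = 0.92). miR-142-3p and miR-451 are 2 of the 4 blood miRNAs listed above, and the other 2, miR-144 and miR-223, were not among these 3. By RPM from the totals, miR-208b was highest in wild-type replicate 3, at 22.5 RPM. On the same scale miR-144 was highest in Adar2-/- replicate 1 (32.3 RPM) and miR-223 in Adar2-/- replicate 3 (5.01 RPM). With TMM factors miR-208b was highest in Adar2-/- replicate 1, at 23.8 RPM against 22.0 RPM in wild-type replicate 3. A link of miR-208b to blood was not tested. Those most like miR-1 were miR-192*, miR-708 and miR-467b, with r from 0.93 to 0.95. miR-1197 was the most similar miRNA for both miR-133a (r = 0.95) and miR-133b (r = 0.95), and let-7c, miR-24 and miR-320 were the most similar ones for miR-499, with r from 0.98 to 0.99. Each miRNA named as most like a member is among the 3 highest of 600 values over the same 6 libraries, which share their totals.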

How the data were processed

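Small RNA from 3 wild-type and 3 Adar2-/- whole brains was sequenced. The authors clipped adaptors with Cutadapt, aligned the reads to mature miRBase sequences by NextGenMap, and deposited raw read counts per miRNA without normalization. The versions of Cutadapt and NextGenMap are not given in the sources used here. Each column was matched to a sample by genotype and by the replicate number of its table, and 12 blank lines were dropped. RPM was computed from the total mapped miRNA reads.

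Tests used edgeR 4.0.16 in R 4.3.3, with DESeq2 1.42.0 as an alternative. P-values were adjusted by Benjamini-Hochberg, and 0.05 was the threshold. Standard errors are those implied by edgeR's F statistic. The scripts were tested on simulated data. Other values were computed with numpy 2.4.6 and scipy 1.17.1 on tables read by pandas 2.3.3 (Python 3.11.15), and figures drawn in matplotlib 3.10.9. Ratios were compared by exact permutation tests. P-values measure the spread between libraries, each with its own brain and sequencing lane, so brain, library preparation and lane are not told apart.

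The 8 members and all lists were chosen with earlier results of these data known. Of 11 testis miRNAs named, 9 were listed. All 8 members, their star arms, the highest of each list and the 3 miRNAs with the highest r for each member with at least 10 reads in every library were eligible to be named. The alternatives tried were DESeq2, TMM factors, totals lacking the 5 most read miRNAs, other minimums (100 reads, or none), the replicate number as a block, and leaving out libraries or replicate numbers.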

Additional observations from a re-analysis of the deposited data

How the results depend on the processing

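With all 6 libraries edgeR called no miRNA under TMM factors, other totals, other minimums or the replicate block. DESeq2 called 1, miR-497*. With libraries or replicate numbers left out, the number of calls ran from 0 to 34 and the number of members among them from 0 to 1, both highest without replicate 1, where miR-499 passed. Without replicate 3 the call was 1, miR-375, also named after its value was seen. In all, 16 of 125 values of single members under the alternatives turned in direction, and 3 of the 8 members (miR-499, miR-122 and miR-208a-3p) did not turn in any. miR-133a turned to 0.33 with the replicate block, 0.29 with the block and TMM factors, 1.18 without wild-type replicate 2, 0.13 without Adar2-/- replicate 1 and 1.27 without replicate 2. miR-133b turned to 0.012 with the block, and to 1.06, 0.06 and 1.15 in the same 3 fits with libraries left out. miR-206 turned to 0.03 without wild-type replicate 2, 0.0053 without wild-type replicate 3, 0.20 without Adar2-/- replicate 1 and 0.04 without replicate 1. miR-1 turned to −0.018 without replicate 2, and miR-208b to −0.016 without wild-type replicate 2 and −0.055 without replicate 2. With libraries left out, values ran from −0.018 to 0.51 for miR-1, −0.25 to 0.20 for miR-206, −0.86 to 1.27 for miR-133a, −1.27 to 1.15 for miR-133b, −0.055 to 0.32 for miR-208b, 0.20 to 1.28 for miR-499, 0.21 to 0.59 for miR-122 and 0.049 to 1.21 for miR-208a-3p. The cause was not tested.

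The deviations of same-numbered libraries from their genotype means correlated at 0.02, −0.06 and −0.04 over 608 miRNAs. The best matching Adar2-/- library was the same-numbered one for wild-type replicate 1, but not for replicates 2 and 3. With means of 3 libraries, these values do not show whether the libraries were paired. The replicate block left the calls at 0. The block was not run on the ratios or sums, which come from no fit. Summed abundance of the 8 miRNAs was 5446 RPM in wild-type and 5508 RPM in Adar2-/- with totals without the 5 most read miRNAs, since the totals are then smaller. With TMM factors it was 2909 and 2879 RPM, so that the order of the genotypes turned. With a library left out it ran from 2613 to 3013 RPM in wild-type and from 2765 to 3345 RPM in Adar2-/-. The difference in the log2 ratio of miR-1 to miR-133a ran from −1.03 to 0.63 and that of miR-206 to miR-133b from −0.88 to 0.36. It turned to 0.31 and 0.05 without wild-type replicate 1, to 0.63 and 0.36 without wild-type replicate 3 and to 0.32 and 0.16 without Adar2-/- replicate 3.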

Other observations

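The tables also list 2 arms named for the antisense strand of a miR-1 hairpin. Its 3p arm, miR-1-2-as-3p, had 13, 38 and 37 reads in wild-type and 27, 62 and 112 reads in Adar2-/- replicates 1 to 3, or 1.04 to 4.68 RPM, and its 5p arm had at most 4 reads. Adar2-/- replicate 3 had the most reads of the 3p arm. In edgeR its log2 fold change was 1.02 (standard error 0.456, unadjusted p = 0.0476, adjusted p = 0.982), so it was among the 20 miRNAs with an unadjusted p below 0.05 and did not pass the adjustment. This arm was chosen after its values were seen.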
